A study of Mus musculus with 43 samples.

Results

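Thrombospondin 1 (Thbs1), thrombospondin 2 (Thbs2), Ctgf, Cyr61, Nov, periostin (Postn), tenascin C (Tnc), Ltbp2 and Tgfbi are grouped here as matricellular or TGF-beta target genes. Not every member need be both. They were chosen by their symbols and are 9 of the 38964 genes that the 4 reprogramming tables share. The members, and the gene lists used below, were chosen with earlier results of these data known. Their counts beside shares of all genes are therefore descriptive. The Myc table, which holds 38966 genes, lists the same 9. In mouse embryonic fibroblasts (MEF) they stood at 15.8 to 1104 FPKM, and in induced pluripotent stem cells (iPSC) at 0.0838 to 15.3 FPKM. FPKM is the number of sequenced fragments scaled to transcript length and library size. In cells with a depleted Mbd3 or Gatad2a gene, 8 of the 9 had fallen within 1 day of induction. In wild-type cells none of the 9 passed the test on day 2, when 0 of 20296 genes did. By day 8 in the wild-type courses Thbs2 had risen and Thbs1 and Ctgf had fallen, with adjusted p from 0.0313 to 0.0471 by limma. The other members had not passed the test. The wild-type calls of Thbs1, Thbs2 and Ctgf were lost under some other settings of the processing, given at the end.

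Matricellular proteins are secreted into the extracellular matrix but act as signals to cells, through integrins and other surface receptors, more than as scaffold. TGF-beta is secreted in a latent complex held in the matrix by latent TGF-beta binding proteins. Thrombospondin 1 and integrins can release it, and the freed ligand acts through its receptors and Smad proteins on genes such as Ctgf, Postn and Tgfbi. Ctgf and Cyr61 are also standard targets of YAP with TEAD factors and of serum response factor. In fibroblasts these genes mark matrix production, adhesion and the contractile state, and loss of the fibroblast programme is one of the first events in reprogramming to pluripotency.

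Poly(A) RNA of 43 mouse libraries was sequenced: 34 from reprogramming courses and 9 with altered Myc. All course cells were secondary MEF with a DOX-inducible OKSM cassette, which encodes Oct4, Klf4, Sox2 and Myc. The genotypes were Mbd3f/- (11 libraries), Gatad2a-/- (10), WT-1 (7) and WT-2 (6), the last of which is isogenic to Gatad2a-/-. Mbd3 and Gatad2a encode subunits of the NuRD chromatin complex, and both genotypes are called depleted here, the word of the series title. Induction was by DOX in FBS/LIF medium at 5% oxygen. On day 3.5, per the design text, LIF/KSR medium with 2i, the inhibitors of MEK/ERK and GSK3, replaced it, whereas the growth protocol gives 2i 48 hours after induction. The depleted courses were sampled as MEF and on each of days 1 to 8, and the wild-type courses as MEF and on days 2, 4, 6 and 8. Each course also had established iPSC of passage 3 or later, and the Mbd3f/- and WT-1 tables have 1 library each of embryonic stem cells (ES), of Mbd3f/- or WT V6.5 origin, grown like the iPSC in N2B27 2i/LIF. From day 3 on, and for iPSC and ES, the cells sat on a layer of irradiated human foreskin fibroblasts (HFF). The effects of time, medium and feeders cannot be told apart, since all of them change along a course. The Myc libraries came from Mbd3f/- cells at day 4 (OSK and cMyc overexpression, each alone or together) and from Mbd3f/- OSK2nd secondary MEFs. The latter carry the transgene FUW-TetO-STEMCCA-OKS-mCherry, which lacks Myc, along with FUW-M2rtTA. They received siRNA for cMyc, lMyc and nMyc or a si-Scramble control on days -3 and 0, or a Myc inhibitor, and were taken as MEF, on day 3 or on day 7.

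Each stage of a course is 1 library. The deposited FPKM keep no read counts, so the depth is unknown. Because FPKM is per length, levels can be compared between genes. The tables were normalized separately, so levels set side by side from different tables are descriptive. The Gatad2a-/- table stands apart: its 20 most abundant genes held 54.5 to 92.2% of the summed FPKM, against 8.89 to 24.8% in the other course tables. No 2 libraries held identical values, and no member was listed at 0 in any library. The targeted genes were still listed at a level. Mbd3 ranged from 36.3 to 96.5 FPKM in the Mbd3f/- table, from 75.3 to 117 in WT-1 and from 53.0 to 135 in WT-2. Gatad2a ranged from 8.59 to 14.7 FPKM in the Gatad2a-/- table, from 10.7 to 42.2 in WT-1 and from 9.17 to 38.5 in WT-2. The deleted part of each gene is not known from these gene-level values, so they do not check the deletion. The 6 fibroblast markers (Thy1, Pdgfra, Pdgfrb, Twist1, Prrx1 and Fbln2) summed to 868 to 1106 FPKM in the 4 MEF libraries, with none at 0. Markers of other cells were present too. In MEF the macrophage markers listed below summed to 4527 in WT-2, 1146 in Mbd3f/-, 221 in Gatad2a-/- and 9.33 in WT-1. The smooth muscle markers summed to 994 to 5089. These sums do not give the share of each cell type.

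The start sites of the members were read from RefSeq (GRCm38.p6), where 6 of the 9 had an entry: Thbs2, Cyr61, Postn, Tnc, Ltbp2 and Tgfbi, with 8 start sites in all. The 250 bases before each start were searched on both strands for motifs of factors tied to these genes. These were the TEAD motif GGAATG, the AP-1 motif TGANTCA, the E-box CACGTG to which Myc binds, the CAGA box AGCCAGACA to which Smads bind, and the SRF CArG box. The TATA box TATAAA was added later. The motifs did not overlap in these windows. Shown is 1 promoter for each of the 4 genes with a match. Capitals mark the match, and each sequence reads towards the gene. For Postn the second of its listed starts is shown and for Tnc the first, whose match recurs 205 bases before the other start. The windows are Thbs2 chr17:14694263-14694512 (minus strand), Cyr61 chr3:145649986-145650235 (minus), Postn chr3:54360857-54361106 (plus) and Tnc chr4:64047016-64047265 (minus).
Thbs2: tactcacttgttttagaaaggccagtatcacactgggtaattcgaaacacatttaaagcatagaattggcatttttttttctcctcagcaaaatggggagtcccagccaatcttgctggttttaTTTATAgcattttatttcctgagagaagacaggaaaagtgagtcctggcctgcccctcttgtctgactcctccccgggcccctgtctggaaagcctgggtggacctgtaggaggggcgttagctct
Cyr61: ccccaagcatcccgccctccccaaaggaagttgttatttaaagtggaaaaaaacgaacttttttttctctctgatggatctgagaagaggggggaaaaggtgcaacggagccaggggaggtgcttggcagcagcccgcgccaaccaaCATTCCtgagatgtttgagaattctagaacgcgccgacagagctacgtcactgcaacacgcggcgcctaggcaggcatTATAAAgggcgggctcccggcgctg
Postn: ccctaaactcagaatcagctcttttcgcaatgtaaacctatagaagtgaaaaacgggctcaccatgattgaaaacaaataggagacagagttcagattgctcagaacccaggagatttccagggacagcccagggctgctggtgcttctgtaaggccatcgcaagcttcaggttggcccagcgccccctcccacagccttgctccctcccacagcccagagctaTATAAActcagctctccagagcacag
Tnc: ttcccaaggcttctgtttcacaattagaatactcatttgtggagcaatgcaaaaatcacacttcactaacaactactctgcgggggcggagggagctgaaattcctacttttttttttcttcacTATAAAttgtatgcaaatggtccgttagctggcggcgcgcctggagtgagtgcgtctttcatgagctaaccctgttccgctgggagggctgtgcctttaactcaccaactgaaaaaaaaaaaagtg
Cyr61 had a TEAD motif in reverse orientation 103 bases before the start and a TATA box 25 bases before it. Postn had a TATA box 26 bases before its start. In Thbs2 the match lay 126 bases before the start on the opposite strand, and in Tnc 126 bases before the start on the gene's strand. The TATA box letters were found before 4 of the 6 members and 12.4% of 32851 mouse start sites. The TEAD motif was found before 1 of the 6 and 12.6% of all start sites. Each member was counted once, over any of its start sites, so the member counts and these shares have unlike units. The AP-1 motif, E-box, CAGA box and CArG box were found before 0 of the 6 members and before 6.75%, 6.02%, 0.301% and 1.47% of all start sites. These are matches of letters, and carry no measure of binding in these cells.

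All 9 members were lower in iPSC than in MEF (limma on log2(FPKM + 1), adjusted p from 6.18e-09 to 0.0108), in a comparison in which 23.9% of 20296 genes were lower. The median change of the members was -5.40 on the log2 scale, against 0.14 over all genes tested. On day 1 in the depleted courses 8 members fell, against 8.99% of 20189 genes, with a member median of -3.23 and a median over all genes of 0.03. On day 2 the same comparison gave 8 members lower, against 8.19% of genes. In WT on day 2, 0 of the 9 members and 0 of 20296 genes changed by limma after adjustment, and at an unadjusted p under 0.05 the counts were 1 member (Nov) and 117 genes. The change to day 2 differed between depleted and WT for 7 members, all lower in the depleted courses, against 1.87% of genes. Without the Mbd3f/- course 3 members were called lower on day 2, and without the Gatad2a-/- course 7. The day 2 difference held for 6 members without Gatad2a-/- and for 2 without any 1 of the other 3 courses. Where a course is left out, its class has 1 library per stage, which is assumed to vary like the other groups. Fewer cells that express a gene and less RNA of it per cell cannot be told apart in these bulk samples.

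On day 4, 8 members were lower than in MEF in the depleted courses (15.5% of genes), and 1, Ctgf, in WT (0.00493% of genes, a single gene). The change to day 4 was lower in depleted than in WT for 5 members, against 5.34% of genes. On day 8 all 9 were lower in the depleted courses (15.3% of genes). In WT on day 8, Thbs1 and Ctgf fell (0.719% of genes fell) and Thbs2 rose (0.439% of genes rose). The change to day 8 was lower in depleted than in WT for 6 members, against 7.73% of genes: Thbs1, Thbs2, Cyr61, Nov, Postn and Tnc. The WT calls depended on single courses: without Mbd3f/-, WT-1 or Gatad2a-/- 0 members were called in WT on either day, and without WT-2 1 member on each. The day 4 difference held for 2 members without WT-2, 3 without Mbd3f/-, 5 without WT-1 and 6 without Gatad2a-/-. Without Gatad2a-/-, whose table stands apart, the counts of lower members were 8 for day 4, 9 for day 8 and 9 for iPSC. The depleted class is then the Mbd3f/- library alone at each stage, with its spread taken from the other groups. The 2 systems of a class are the only replicates of each stage. Nothing in the labels says that libraries of a course are separate cultures, so each p-value reflects only how these samples spread. That spread is how far the 2 systems of a class differ in their changes, so differences between systems and technical ones are mixed in it. Depletion and system also differ together, and their effects cannot be told apart. The log2(FPKM + 1) scale understates the change of genes at low levels.

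**Figure D1:**
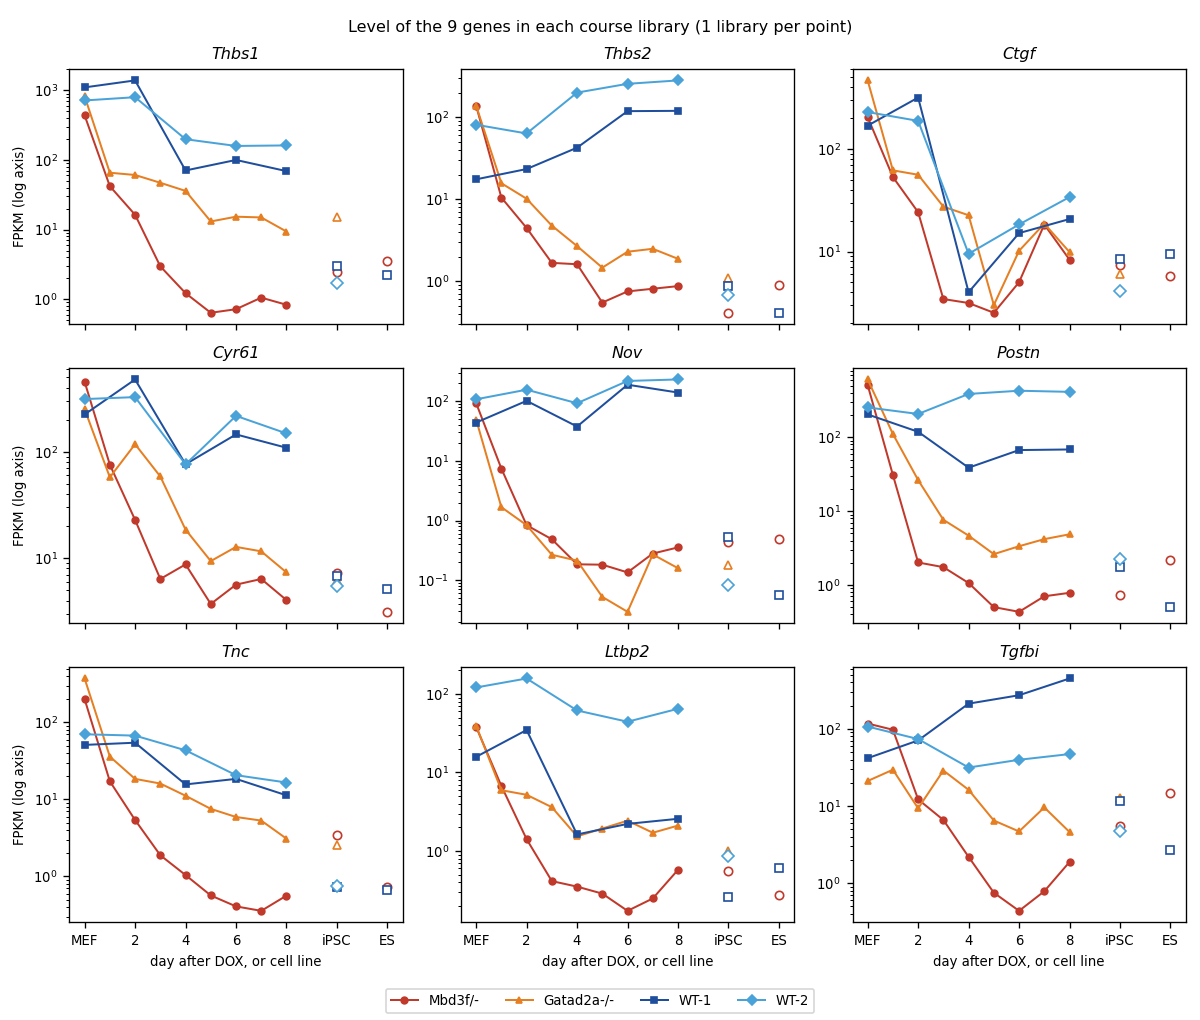
FPKM (log10 axis) of the 9 members by stage, 1 panel per gene and 1 line per system, with 1 library per point. In the Mbd3f/- and Gatad2a-/- courses Thbs1, Thbs2, Nov, Postn, Tnc and Ltbp2 are already far below MEF on day 1, whereas in WT-1 and WT-2 Thbs2 and Nov end day 8 above their MEF level.

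Thbs1 encodes thrombospondin 1, a secreted glycoprotein that can activate latent TGF-beta (ENSMUSG00000040152, chromosome 2, 118111876 to 118127133, plus strand, GRCm38, overlapped by the opposite-strand Gm29233). It was the most abundant member in MEF of Gatad2a-/-, WT-1 and WT-2, while in Mbd3f/- MEF Postn (512 FPKM) and Cyr61 (455 FPKM) were higher. In the Mbd3f/- course it stood at 438 FPKM in MEF, 42.1 at day 1, 16.3 at day 2, 1.22 at day 4 and 0.833 at day 8. In the Gatad2a-/- course the levels were 825 in MEF, 65.7 at day 1, 61.0 at day 2, 36.0 at day 4 and 9.39 at day 8. Both depleted courses thus lost most of the Thbs1 level within a day. The level in Gatad2a-/- was above that in Mbd3f/- on every day, in tables normalized separately. Relative to its own MEF, Thbs1 was at 9.60% in Mbd3f/- and 7.96% in Gatad2a-/- on day 1, and 3.73% and 7.39% on day 2. WT-1 had 1104 FPKM in MEF, 1391 at day 2, 70.8 at day 4, 100.2 at day 6 and 69.3 at day 8. WT-2 had 717, 798, 199, 159 and 162 at the same stages. In WT the loss thus lay between days 2 and 4 and stopped there. The WT and depleted levels did not overlap from day 2 on, again in tables normalized separately. On day 2 the change was -4.20 ± 0.67 (SE, log2) in the depleted courses, adjusted p = 0.00207, and 0.24 in WT, adjusted p = 1. Their difference was -4.44 ± 0.94, adjusted p = 0.0307. On day 8 Thbs1 fell in WT too, with a log2 change of -3.06 ± 0.67 (adjusted p = 0.0471), and the depleted change lay lower by a difference of -4.05 ± 0.94 (adjusted p = 0.0118). In iPSC it was 15.3 FPKM in Gatad2a-/- and 1.71 to 3.00 in the other 3 systems.

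Thbs2 encodes thrombospondin 2, a relative that shares the matrix and CD36-binding parts but not the TGF-beta activating sequence (ENSMUSG00000023885, chromosome 17, 14665500 to 14694235, minus strand). Its WT course was the reverse of its depleted course. In Mbd3f/- it was at 138 FPKM in MEF, 10.5 at day 1, 4.47 at day 2, 1.61 at day 4 and 0.872 at day 8. The Gatad2a-/- levels were 138 in MEF, 15.7 at day 1, 10.2 at day 2, 2.68 at day 4 and 1.88 at day 8. The depleted courses started level, and the Gatad2a-/- level was the higher from day 1 on, in tables normalized separately. WT-1 went from 17.5 FPKM in MEF through 23.4 at day 2, 42.6 at day 4 and 119 at day 6 to 119.7 at day 8. WT-2 went from 81.0 through 63.4, 199.9 and 256 to 281. Day 8 levels were thus 684% of MEF in WT-1 and 347% in WT-2, while both MEF libraries of the WT systems lay below those of the depleted systems. The rise in WT on day 8 was 2.24 ± 0.44 (log2), adjusted p = 0.0313, and the difference between the classes was -8.15 ± 0.62, adjusted p = 1.93e-05. In both WT iPSC the gene was under 1 FPKM (0.880 and 0.679), so the high level of WT day 8 was not a feature of the established lines.

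The CCN family proteins Ctgf (Ccn2), Cyr61 (Ccn1) and Nov (Ccn3) are modular secreted proteins that bind integrins and growth factors. In both WT courses all 3 genes were lowest on day 4 among the sampled days, but to different depths. Ctgf (ENSMUSG00000019997, chromosome 10, 24595442 to 24598683, plus strand) is the classic early response gene of TGF-beta and YAP. It stood at 203 FPKM in Mbd3f/- MEF, 53.1 at day 1, 24.1 at day 2, 3.15 at day 4 and 8.33 at day 8. In Gatad2a-/- the levels were 463, 61.7, 55.9, 22.5 and 9.88. Ctgf did not stay at its lowest level: in Mbd3f/- it was 2.53 at day 5 and 18.3 at day 7, and in Gatad2a-/- 3.01 at day 5 and 18.7 at day 7. WT-1 had 168 FPKM in MEF, 315 at day 2, 4.02 at day 4, 15.1 at day 6 and 20.7 at day 8. WT-2 had 228, 187, 9.50, 18.3 and 33.9. Day 4 was the lowest of the sampled days in both WT courses, at 2.39% of MEF in WT-1 and 4.17% in WT-2. The WT change to day 4 was -4.76 ± 0.56 on the log2 scale, adjusted p = 0.00932. It differed from the depleted change by -0.20 ± 0.78 (adjusted p = 0.935), an SE too wide to say that the classes were alike. The day 2 change did differ, by -3.34 ± 0.78 (adjusted p = 0.0442). In WT, Ctgf fell by 2.84 ± 0.56 to day 8 (adjusted p = 0.0324). An opposite-strand transcript, Gm15270, overlaps the gene, and without strand information its reads cannot be told apart from those of Ctgf.

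Cyr61 (ENSMUSG00000028195, chromosome 3, 145646976 to 145649981, minus strand), whose promoter carries the TEAD motif shown above, shares most inducers with Ctgf and, like it, was lowest in WT at day 4 among the sampled days. In Mbd3f/- it was at 455 FPKM in MEF, 75.6 at day 1, 22.9 at day 2, 8.74 at day 4 and 4.04 at day 8. Gatad2a-/- had 251, 57.6, 118, 18.6 and 7.35, with the day 2 library above the day 1 library. WT-1 had 224 FPKM in MEF, 478 at day 2, 76.3 at day 4, 146 at day 6 and 109 at day 8. WT-2 had 313, 326, 76.1, 217 and 149. The day 4 trough was shallower than that of Ctgf, at 34.1% of the MEF level in WT-1 and 24.4% in WT-2. The WT change to day 4 was -1.78 ± 0.54 (adjusted p = 0.351) and to day 8 -1.05 ± 0.54 (adjusted p = 0.390), neither past the threshold. The difference of depleted from WT was -3.25 ± 0.76 at day 2 (adjusted p = 0.0434), -2.84 ± 0.76 at day 4 (adjusted p = 0.0418) and -4.66 ± 0.76 at day 8 (adjusted p = 0.00151).

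Nov (ENSMUSG00000037362, chromosome 15, 54745702 to 54754039, plus strand), the CCN protein often described as an antagonist of Ctgf, was among the most completely lost members in the depleted courses. In Mbd3f/- it went from 93.0 FPKM in MEF to 7.42 at day 1, 0.836 at day 2, 0.185 at day 4 and 0.355 at day 8. In Gatad2a-/- it was at 49.1 in MEF, 1.67 at day 1, 0.836 at day 2, 0.213 at day 4 and 0.159 at day 8. Its day 2 levels were thus 111-fold and 58.8-fold below MEF. WT-1 held 43.8 FPKM in MEF, 101 at day 2, 37.6 at day 4, 189 at day 6 and 139.6 at day 8. WT-2 held 108, 156, 92.5, 218 and 231. Both WT courses dipped on day 4 and lay above MEF on days 2, 6 and 8, with peaks of 431% of MEF on day 6 in WT-1 and 215% on day 8 in WT-2. The WT change to day 8 was 1.37 ± 0.37 with an adjusted p = 0.0926, and so did not pass. The difference between the classes was -6.08 ± 0.52 at day 2 (adjusted p = 0.000212) and -7.15 ± 0.52 at day 8 (adjusted p = 1.81e-05). At day 4 in WT-1 the CCN genes' shares of the MEF level ran from 2.39% for Ctgf to 85.8% for Nov, and at day 2 in Gatad2a-/- from 1.70% for Nov through 12.1% for Ctgf to 46.9% for Cyr61.

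Postn encodes periostin, a TGF-beta induced protein that links collagen and integrins (ENSMUSG00000027750, chromosome 3, 54361109 to 54391037, plus strand). In Mbd3f/- it was at 512 FPKM in MEF, 30.9 at day 1, 2.02 at day 2, 1.06 at day 4 and 0.782 at day 8. Its Gatad2a-/- levels were 608, 111, 26.4, 4.66 and 4.85. WT-1 had 204 FPKM in MEF, 119 at day 2, 38.8 at day 4, 67.2 at day 6 and 68.5 at day 8. WT-2 had 254, 207, 387, 428 and 413. The WT systems thus went opposite ways after day 2, with WT-1 below and WT-2 above MEF on days 4, 6 and 8. The WT mean change to day 8, -0.43 ± 0.74 (adjusted p = 0.977), averages over that split. Depleted and WT levels did not overlap from day 2 on, in tables normalized separately. The difference in change from MEF was -5.41 ± 1.05 at day 2 (adjusted p = 0.0221), -6.47 ± 1.05 at day 4 (adjusted p = 0.00368) and -7.00 ± 1.05 at day 8 (adjusted p = 9e-04).

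Tnc encodes tenascin C, a large anti-adhesive matrix protein of embryonic and wounded tissue (ENSMUSG00000028364, chromosome 4, 63959785 to 64047015, minus strand, overlapped by the opposite-strand 8030451A03Rik). In Mbd3f/- its level was 201 FPKM in MEF, 17.2 at day 1, 5.41 at day 2, 1.04 at day 4 and 0.564 at day 8. Gatad2a-/- had 372, 36.0, 18.5, 11.2 and 3.10. WT-1 had 51.1 FPKM in MEF, 54.5 at day 2, 15.7 at day 4, 18.5 at day 6 and 11.3 at day 8. WT-2 had 70.2, 67.4, 43.5, 20.7 and 16.6. On days 4, 6 and 8 Tnc was below MEF in both WT systems, where Thbs2 was above. The WT change to day 8 was -2.05 ± 0.53 with an adjusted p = 0.0808. The depleted change exceeded it by -4.71 ± 0.74 (adjusted p = 0.00123). On day 4 Gatad2a-/- held 11.2 FPKM and WT-1 15.7, in tables normalized separately. Those 2 libraries lay close in level, while Mbd3f/- was at 1.04 and WT-2 at 43.5. The class changes from MEF differed by -4.62 ± 0.74 (adjusted p = 0.00357), with MEF levels of 372 FPKM in Gatad2a-/- and 51.1 in WT-1.

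Tgfbi, whose protein binds integrins and collagen and was first found as a TGF-beta induced gene, had the slowest course (ENSMUSG00000035493, chromosome 13, 56609523 to 56639562, plus strand). In Mbd3f/- it was at 117 FPKM in MEF, 97.4 at day 1, 12.2 at day 2, 2.19 at day 4 and 1.88 at day 8, with its lowest value of 0.436 at day 6. In Gatad2a-/- it was at 21.1 in MEF, 29.5 at day 1, 9.32 at day 2, 28.8 at day 3, 16.2 at day 4 and 4.60 at day 8. Tgfbi was the one member that did not fall on day 1, with a change of 0.10 ± 1.12 (adjusted p = 1), and of days 1, 2, 4 and 8 it passed on day 8 alone, at -3.67 ± 1.12 (adjusted p = 0.0225). Without the Mbd3f/- course the day 8 change was -1.98 (adjusted p = 0.444). WT-1 went from 41.7 FPKM in MEF through 70.8 at day 2, 212 at day 4 and 273 at day 6 to 450.3 at day 8. WT-2 had 107, 73.8, 31.5, 39.7 and 47.1. The day 8 level was thus 1080% of MEF in WT-1 and 43.9% in WT-2, and the WT mean of 1.12 ± 1.12 (adjusted p = 0.791) describes neither. Its iPSC and ES levels had no common order: 14.7 FPKM in the Mbd3f/- ES library against 5.53 in iPSC, and 2.69 in the WT-1 ES library against 11.6.

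The WT systems also differed in macrophage markers (Tyrobp, Cd68, Csf1r, Aif1, Lyz2 and Fcer1g, 6 of 6 tested), which is given beside Postn and Tgfbi because macrophages are a source of Tgfbi. Their summed FPKM was 4527 in WT-2 MEF, 4192 at day 2, 4081 at day 4, 8319 at day 6 and 4913 at day 8, with none at 0. In WT-1 the sum was 7.59 to 17.2 from MEF to day 8, with none at 0. It was 1146 in Mbd3f/- MEF and 119 at day 2, and 221 in Gatad2a-/- MEF and 253 at day 2. Tgfbi was higher in WT-2 than in WT-1 in MEF (107 against 41.7 FPKM) and on day 2 (73.8 against 70.8). On days 4, 6 and 8 it was higher in WT-1, the system with the lower macrophage sum. In Mbd3f/- Tgfbi went from 117 FPKM in MEF to 12.2 at day 2, and in Gatad2a-/- from 21.1 to 9.32. The part of macrophages in the Tgfbi and Postn results was not tested.

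Ltbp2 encodes a latent TGF-beta binding protein of elastic fibres that itself binds no TGF-beta (ENSMUSG00000002020, chromosome 12, 84783212 to 84876532, minus strand, overlapped by the opposite-strand D030025P21Rik). In Mbd3f/- it was at 38.0 FPKM in MEF, 6.73 at day 1, 1.42 at day 2, 0.352 at day 4 and 0.576 at day 8. The Gatad2a-/- values were 39.2, 5.94, 5.20, 1.54 and 2.11. WT-1 had 15.8 FPKM in MEF, 34.7 at day 2, 1.62 at day 4, 2.21 at day 6 and 2.57 at day 8. WT-2 had 121, 157, 61.6, 44.3 and 64.7. On day 4 the WT-1 and Gatad2a-/- libraries lay close in level, in tables normalized separately, while Mbd3f/- was at 0.352 FPKM and WT-2 at 61.6. Relative to their own MEF they stood at 10.3% in WT-1 and 3.92% in Gatad2a-/-. WT-2 kept 53.5% of its MEF level on day 8 and WT-1 16.3%. Ltbp2 fell in the depleted courses on each day tested, by 4.16 ± 0.72 at day 8 (adjusted p = 0.000781). The difference from WT did not pass on any day (-4.09 ± 1.02, adjusted p = 0.0551, on day 2, and -2.60 ± 1.02, adjusted p = 0.104, on day 8).

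**Figure D2:**
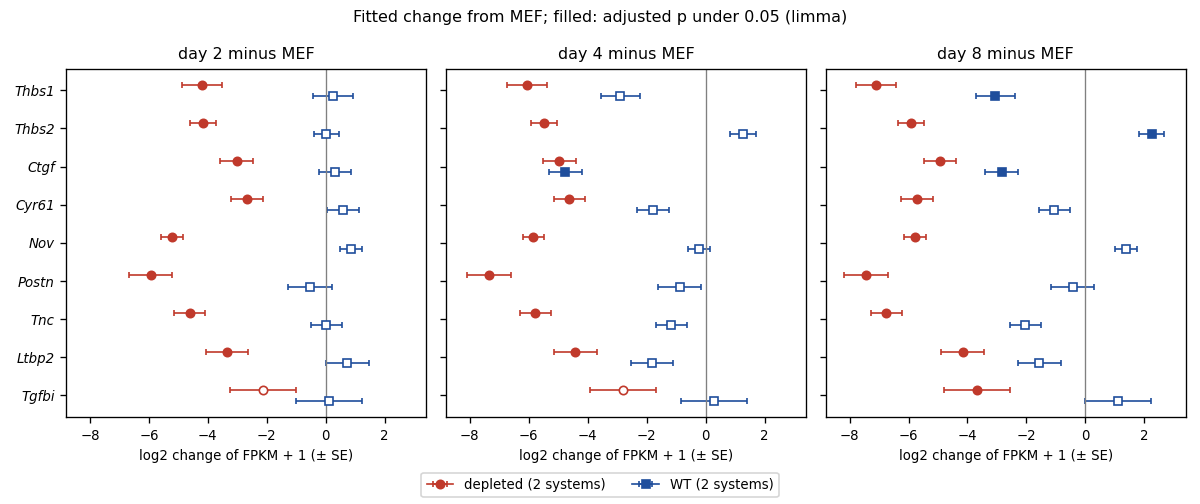
Change from MEF in log2(FPKM + 1) on days 2, 4 and 8 for each member, with depleted and WT class means from limma and bars of 1 SE, over 2 systems per class. The depleted means lie below -2 for every member at all 3 times, while the WT means on day 2 lie between -0.53 and 0.86.

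As a description of timing, the first day from which a member stayed 2-fold or more below its MEF level was day 1 for 8 members in both depleted courses. Tgfbi reached that state on day 2 in Mbd3f/- and on day 5 in Gatad2a-/-. In WT-1 it was day 4 for 5 members (Thbs1, Ctgf, Postn, Tnc and Ltbp2) and day 8 for Cyr61, while Thbs2, Nov and Tgfbi never reached it. In WT-2 it was day 4 for Thbs1, Ctgf and Tgfbi, day 6 for Tnc and day 8 for Cyr61, and Thbs2, Nov, Postn and Ltbp2 never reached it. For scale, among genes with at least 10 FPKM in MEF, 21.7% of 7080 were 2-fold or more below MEF on day 1 in Mbd3f/- and 15.7% of 7831 in Gatad2a-/-. On day 2 in WT the shares were 0.578% of 6915 genes in WT-1 and 3.67% of 7338 in WT-2, and 0 members in either. By day 4 the shares were 9.72% in WT-1 and 7.99% in WT-2, and by day 8 13.6% and 12.7%.

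Markers of mesenchymal cells fell with the members in the depleted courses. In WT the fibroblast and smooth muscle sums were also lower on day 8 than in MEF, while Thbs2 and Nov were higher. The 6 fibroblast markers summed to 191 FPKM on day 2 in Mbd3f/- and 200.2 in Gatad2a-/-, against 904 to 1248 in WT. On day 8 the sums were 7.57 and 14.1 in the depleted courses and 519 to 709 in WT, and in iPSC 8.52 to 17.1. The 6 smooth muscle markers (Acta2, Tagln, Cnn1, Myh11, Actg2 and Des) summed to 994 to 5089 FPKM in MEF. On day 4 their sums were 16.0 in Mbd3f/- and 55.5 in Gatad2a-/-, 231 in WT-1 and 1572 in WT-2, an order that 6 members shared on that day (Thbs1, Thbs2, Nov, Postn, Tnc and Ltbp2). All 6 fibroblast and all 6 smooth muscle markers were lower on day 8 in the depleted courses, and 0 of each passed the test in WT. The WT levels were still lower than in MEF on day 8: the smooth muscle sum was 3477 in WT-1 MEF and 334 on day 8, and 994 and 762 in WT-2. The fibroblast sum was 1106 and 519 in WT-1 and 868 and 709 in WT-2. The 6 pluripotency markers summed to 3466 FPKM in Mbd3f/- and 2191 in Gatad2a-/- on day 8, against 144 in WT-1 and 1.72 in WT-2. Of the other marker lists on day 8 in the depleted courses, 4 of 6 macrophage, 3 of 3 skeletal muscle, 3 of 6 cartilage, 1 of 4 keratinocyte and 1 of 3 endothelial markers fell and 1 endothelial marker rose. In WT on day 8, 3 of 6 cartilage markers fell and none of the others passed the test. The part of a changing cell mixture in the members' changes was not tested.

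No member passed the test between ES and iPSC. The difference of ES from iPSC was -0.43 to 0.78 on the log2 scale, with 0 of 9 members and 0 of 20401 genes called by limma, and 0 members and 515 genes at an unadjusted p under 0.05. Over the 6 iPSC and ES libraries Ctgf stood at 4.16 to 9.45 FPKM and Cyr61 at 3.13 to 7.24 FPKM. These cells sat on HFF, and the part of feeder RNA in such low levels was not tested. Nov was under 1 FPKM in all 6, at 0.0567 to 0.526. The largest falls from MEF to iPSC were those of Thbs1 (-7.20 ± 0.47, adjusted p = 1.02e-07) and Postn (-7.05 ± 0.52, adjusted p = 2.81e-07), and the smallest was that of Tgfbi (-2.72 ± 0.79, adjusted p = 0.0108). The Tgfbi fall rested on single systems: it was -1.85 (adjusted p = 0.193) without Mbd3f/- and -2.10 (adjusted p = 0.106) without WT-2.

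Over the 34 course libraries, with each table's mean taken off, the members correlated among themselves to different degrees, as a description. The highest Pearson correlations were those of Thbs1 with Tnc (0.959), Thbs2 with Nov (0.958) and Thbs1 with Cyr61 (0.950). The lowest were those of Ctgf with Tgfbi (0.501) and Thbs2 with Ctgf (0.587). Within the 21 depleted libraries these were 0.667 and 0.919, and within the 13 WT libraries 0.305 and 0.25. The genes most like each member over the same libraries follow. For Thbs1 they were Fhl2 (0.969), Snai2 (0.968) and Ctsh (0.966), and for Thbs2 Igf1 (0.975), Adamts2 (0.974) and Mfap2 (0.971). Ctgf was most like Smad6 (0.926), and F3 (0.898) was also among its nearest, lower values than for any other member but Tgfbi. Cyr61 was most like Msrb3 (0.965), Plau (0.963) and Loxl3 (0.963), and Nov like Fzd1 (0.982), Mfap2 (0.981) and Figf (0.976). Postn was most like Col12a1 (0.978), Col8a1 (0.978) and Loxl1 (0.975), and Tnc like Nedd9 (0.977), Phldb2 (0.962) and Nrp1 (0.961). Ltbp2 was most like Snai1 (0.971), Jph2 (0.960) and Rrad (0.958). Tgfbi stood apart, with Pdgfrl (0.876), Vim (0.863) and Tspan3 (0.862). These libraries share their tables and the order of the courses, so high values are common among genes of fibroblasts.

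The rest of the TGF-beta and YAP pathways moved in part with the members. Among 19 tested ligands, latency proteins and activators of TGF-beta, 16 were lower and 1 higher in iPSC than in MEF (median -3.03, against 0.14 over all genes). The ligand Tgfb3 (-6.03 ± 0.47) and the TGF-beta binding proteoglycan Dcn (-5.16 ± 0.62) fell most, and the latency protein Ltbp4 rose (1.54 ± 0.31). On day 8 in the depleted courses 16 fell and 0 rose, led by Tgfb3 (-6.40) and the activin subunit Inhba (-6.03), and in WT 0 of 19 passed the test. Of 20 receptors and Smads, 14 fell and 3 rose in iPSC, with the type II receptor Tgfbr2 at -4.40 ± 0.34, Acvrl1 at -2.74, and the activin receptors Acvr2b and Acvr1b at 1.45 and 0.90. On day 8, 10 fell and 2 rose in the depleted courses, where Tgfbr2 was at -3.81, Acvrl1 at -3.17, Acvr2b at 1.61 and Acvr1b at 1.34. In WT 2 fell and 0 rose, and those were the Smad partner Skil (-1.65 ± 0.33, adjusted p = 0.0347) and the ubiquitin ligase Smurf2 (-1.33 ± 0.28, adjusted p = 0.0444).

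Among 20 other TGF-beta targets, 17 fell and 1 rose in iPSC. Timp3, an inhibitor of matrix metalloproteinases, fell most (-5.65), and the Smad corepressor Tgif1 rose (1.53). On day 8, 18 fell and 1 rose in the depleted courses, with Timp3 at -5.33 and Tgif1 at 1.60. In WT 2 fell, among them the fibronectin receptor subunit Itga5 (-1.88 ± 0.34, adjusted p = 0.0245). Of 20 components of the YAP and TEAD pathway, 13 fell and 3 rose in iPSC, with Vgll3 at -4.14, the kinase Lats2 at -3.14, Tead4 at 2.08 and Nf2 at 0.83. On day 8, 10 fell and 2 rose in the depleted courses (Vgll3 -3.76, Lats2 -3.03, Tead4 2.86, Nf2 1.73) and 0 of 20 passed in WT. Of other targets of YAP and SRF 17 of 19 fell in iPSC, led by the receptor Axl (-5.57) and Fhl2 (-4.94), with 0 higher. On day 8, 13 of 19 fell in the depleted courses, led by Ankrd1 (-5.84) and Axl (-5.71), and 0 passed in WT.

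Of 17 other matricellular genes 14 fell and 0 rose in iPSC, with Ccdc80 at -6.62 and the elastic fibre protein Fbln5 at -5.97. On day 8, 10 fell in the depleted courses (Fbln5 -6.09, Ccdc80 -5.69) and 1 in WT, Smoc1 (-3.26 ± 0.43, adjusted p = 0.00812). Of 19 receptors for matricellular proteins 15 fell and 1 rose in iPSC: Anxa2 was at -4.33, the thrombospondin receptor Cd47 at -3.92 and the laminin receptor subunit Itga6 at 1.50. On day 8, 13 fell and 1 rose in the depleted courses, with Itga8 at -3.54, Itga1 at -3.35 and Itga6 at 1.07, and 0 of 19 passed in WT. Only 235 of 20296 genes passed in WT on day 8, so a gene that did not pass may still have moved. The WT day 8 medians were -0.03 for the TGF-beta ligand list, -0.44 for receptors and Smads and -0.83 for other TGF-beta targets. They were -0.37 for the YAP and TEAD pathway and -0.97 for other YAP and SRF targets. Other matricellular genes had 0.23 and their receptors -0.52, against 0 over all genes.

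**Figure D3:**
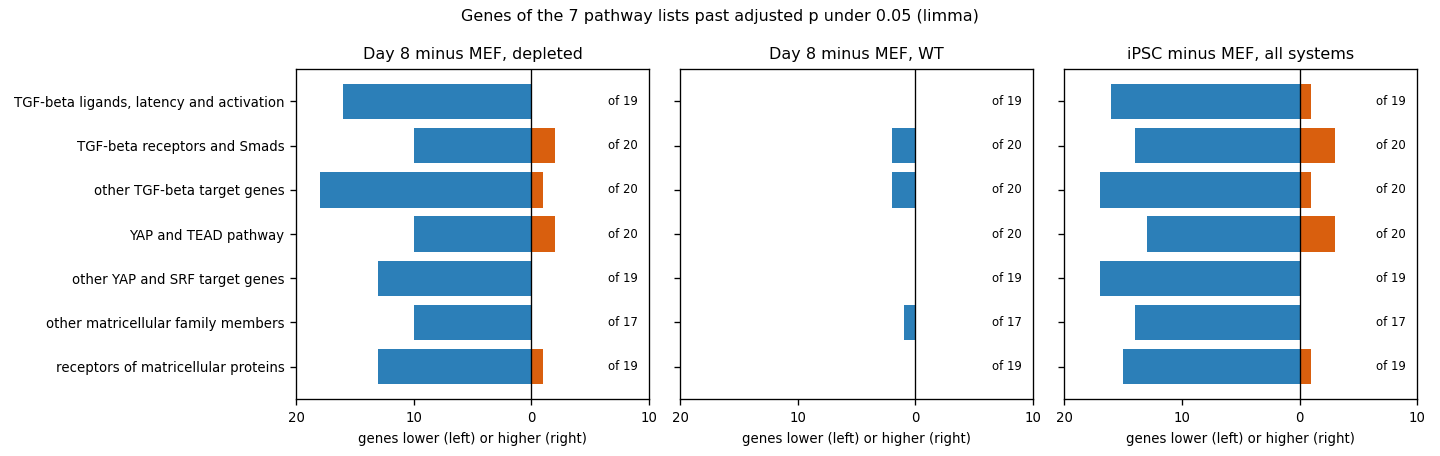
Numbers of genes of each pathway list that fell or rose at an adjusted p under 0.05 (limma) in iPSC and on day 8 in the depleted and WT courses, each relative to MEF. The depleted day 8 bars approach those of iPSC, and in WT at most 2 genes of a list passed.

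The Myc libraries ask what the members do when Myc is added, knocked down or inhibited during induction. There is 1 library per condition (2 for si-Scramble MEF), so no test was made, a gene is called when it passes 2-fold on log2(FPKM + 1), and a difference has no replicate check. Myc itself followed its labels only in part. It was 0.510 FPKM in the library labelled cMyc overexpression, 3.16 in the library labelled OSK + cMyc and 24.8 in the library labelled OSK. In the library labelled siMyc day 3 it was 29.2, against 30.5 and 26.5 in the libraries labelled si-Scramble MEF. It was 11.0 in the library labelled siMyc day 7, 16.2 in the library labelled si-Scramble day 7 and 29.4 in the library labelled Myc inhibitor. In the library labelled siMyc day 3 Mycl was 3.93 (1.65 and 1.29 in MEF) and Mycn 1.87 (5.11 and 4.43). In the library labelled siMyc day 7 Mycl was 3.31, against 1.03 with si-Scramble, and Mycn 0.927 against 1.47. Of the 3 Myc genes, cMyc and nMyc were thus lower and lMyc higher in the same-day comparison. Whether the Myc value counts transcripts of an introduced Myc is not known here, so it does not check the overexpression labels. Directions below are therefore those of libraries as labelled. An inhibitor of Myc protein need not lower its RNA.

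Relative to the library labelled OSK, the library labelled OSK + cMyc had 3 members lower (15.7% of 16430 genes were lower) and 1 higher (11.1% higher). Ctgf was 287 FPKM with OSK and 38.9 with OSK + cMyc, a difference of -2.85 on the log2 scale. Cyr61 was 165 and 76.2 (-1.10), and Tnc 36.1 and 15.9 (-1.14). Ltbp2 was 1.95 with OSK and 6.76 with OSK + cMyc (1.40). The other 5 members differed by less than 2-fold, Thbs1 being 159.8 and 147. Relative to the library labelled cMyc, the library labelled OSK + cMyc had 2 members lower (3.98% of genes) and 1 higher (8.81%). Postn was 35.6 FPKM with cMyc and 4.25 with OSK + cMyc (-2.80), Tgfbi 47.2 and 10.9 (-2.02), and Thbs1 57.1 and 147 (1.35). Both comparisons share the OSK + cMyc library. All 3 day 4 libraries had low Nov (2.49 to 4.15 FPKM) beside the 69.3 and 77.1 of the libraries labelled si-Scramble MEF, which came from the other cell line. Over these 3 libraries Thbs1, Thbs2, Ctgf, Cyr61 and Tnc were highest in the one labelled OSK. Nov, Postn, Ltbp2 and Tgfbi were highest in the one labelled cMyc. In the library labelled OSK the smooth muscle sum was highest too, at 712 FPKM against 350 and 501. The same held for the fibroblast sum, at 602 against 455 and 361.

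On day 7, the library labelled siMyc had 4 members more than 2-fold below the library labelled si-Scramble, where 4.18% of genes were lower, and 0 members above. Postn was 32.4 FPKM against 225 (-2.76), Tgfbi 18.1 against 80.8 (-2.10), Nov 4.17 against 13.5 (-1.49) and Thbs2 50.3 against 113 (-1.16). Thbs1 was 485 against 275 (0.81), Ctgf 115 against 70.5 (0.70) and Cyr61 143 against 89.6 (0.67), all under 2-fold. Tnc (89.0 against 110.4) and Ltbp2 (35.6 against 38.8) lay closer still. This is the one comparison of siRNA libraries at the same day.

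The other libraries can be set only against the libraries labelled si-Scramble MEF, so time and induction differ along with the treatment, and the 3 comparisons share those controls. In the library labelled siMyc day 3, 4 members were lower (8.36% of genes) and 3 higher (4.56%). Nov was 4.33 FPKM against 77.1 and 69.3 (-3.80), Tgfbi 21.7 against 147 and 154 (-2.74), Postn 86.2 against 563 and 561 (-2.69), and Thbs2 25.6 against 93.1 and 92.0 (-1.81). Ctgf was 639 against 206 and 179 (1.73), Thbs1 836 against 278 and 261 (1.63), and Cyr61 487 against 165 and 183 (1.48). In the library labelled Myc inhibitor day 3, 4 members were lower (10.3% of genes) and 3 higher (10.1%). Cyr61 was 1232 FPKM (2.82), Ctgf 918 (2.25) and Thbs1 701 (1.38), while Nov was 14.9 (-2.22), Postn 159 (-1.81), Tgfbi 54.7 (-1.45) and Ltbp2 18.6 (-1.06). In the library labelled si-Scramble day 7, 3 members were lower (5.41% of genes): Nov (-2.35), Ctgf (-1.43) and Postn (-1.32). Thbs1 was within 0.03 of MEF there, at 275 FPKM.

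Marker levels also differed between these libraries. The 6 smooth muscle markers summed to 7178 FPKM in the library labelled siMyc day 3 and 2790 in that labelled Myc inhibitor, against 2706 and 2594 in the libraries labelled si-Scramble MEF. They summed to 968 in the library labelled siMyc day 7 and 693 in that labelled si-Scramble day 7. All 6 were over 2-fold higher in the siMyc day 3 library than in MEF and all 6 over 2-fold lower in the si-Scramble day 7 library, with none at 0. Fibroblast sums ran from 907 to 1534 FPKM over the 6 libraries of this cell line and from 361 to 602 over the other 3. The keratinocyte sum was 91.4 in the siMyc day 3 library, 251 and 243 in the siMyc and si-Scramble day 7 libraries, and 3.98 to 8.16 in the inhibitor and MEF libraries, where Krt5, Krt6a or Ivl were listed at 0 in some. Macrophage markers, of which 5 of 5 tested were over 2-fold lower in the siMyc day 3 library than in MEF, summed to 14.1 there, 37.2 in the inhibitor library and 49.6 and 63.2 in MEF, with Aif1 at 0 in the day 3 libraries. On day 7 the macrophage sums were 23.5 with siMyc and 30.7 with si-Scramble, and in the 3 libraries of the other cell line 4.42 to 12.7, with Tyrobp at 0 in each. Cartilage markers, of which 2 of 2 tested were over 2-fold higher in the inhibitor library, summed to 128 there, 27.4 in the siMyc day 3 library and at most 21.8 in the MEF libraries, with Matn1 at 0 in all 4. The part of these cells in the differences was not tested.

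**Figure D4:**
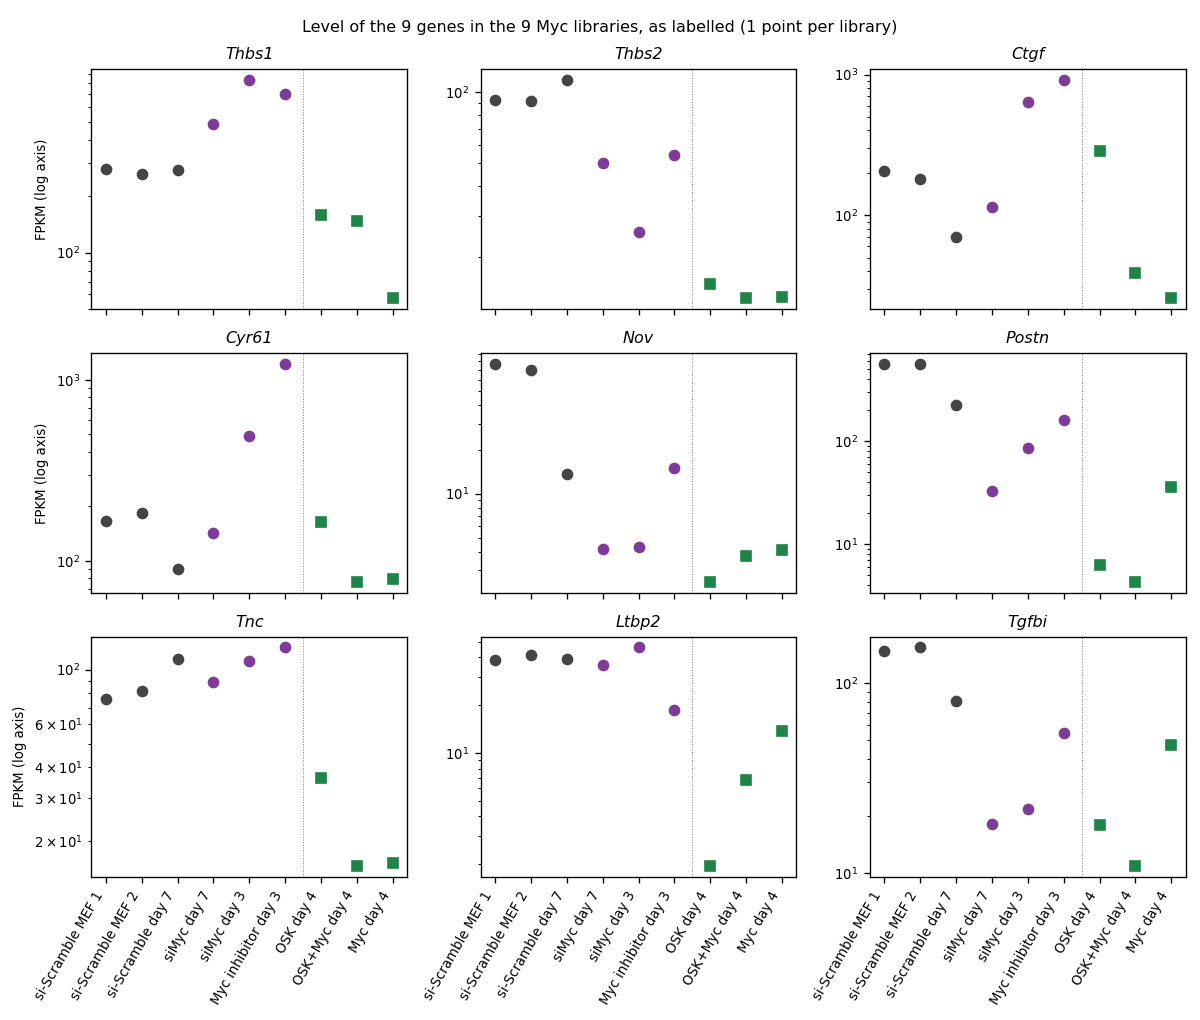
FPKM (log10 axis) of the 9 members in each of the 9 Myc libraries, 1 point per library as labelled (black si-Scramble, purple siMyc or inhibitor, green squares the other cell line). Thbs1, Ctgf and Cyr61 are highest in the day 3 libraries labelled siMyc and Myc inhibitor, and Nov, Postn and Tgfbi are highest in the 2 libraries labelled si-Scramble MEF.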

How the data were processed

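The authors deposited FPKM per gene in 5 tables, 1 for each of the 4 course systems and 1 for the Myc libraries, made from TruSeq RNA v2 libraries per the labels. Per the submitters' processing notes the tools were Cufflinks 2.2.1, TopHat2 2.0.10 and CASAVA 1.8.2, with the build mm10. Neither the annotation nor any use of strand is stated in the sources used here. The 19 gene identifiers listed more than once in a table were left out. All 37 mitochondrial genes are listed at 0 in every library, so a 0 can be a failed estimate. Every value column matched a sample (0 unmatched).

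Genes with at least 1 FPKM in at least 2 libraries entered a limma fit (limma 3.58.1, R 4.3.3) of log2(FPKM + 1), with eBayes run with a trend and robustly. The model gave each class (depleted or WT) a mean at each stage, with the system, which is also the table, as a block. Benjamini-Hochberg adjustment ran over all genes, with a threshold of 0.05. Stages shared by all courses used 24 libraries and 20296 genes (10 residual degrees of freedom), day 1 used 20 libraries and 20189 genes (9), and ES against iPSC used 26 libraries and 20401 genes (10). The tables were normalized separately, so contrasts are differences within a table. The Myc libraries gave differences of log2(FPKM + 1) over 16430 genes, with no test. The fit was tested on simulated data first.

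All 9 members were named. From each pathway list the 2 genes with the largest rise and the 2 with the largest fall among those past the threshold were named, for iPSC and for day 8. For likeness, the 3 genes with the highest Pearson correlation with each member were named. One gene that met these rules is not reported here. Members and lists were chosen with earlier results of these data known. Gene coordinates came from the GENCODE annotation of GRCm38. Figures were drawn with matplotlib 3.10.9 in Python 3.11.15. Alternatives were a pseudocount of 0.1, a filter at 5 FPKM or none, quantile normalization, a median shift, no block, the compared stages alone, eBayes without trend or robust moderation, and each course left out in turn.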

Additional observations from a re-analysis of the deposited data

Results flagged for a closer look

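The change from MEF differed between the depleted and the WT courses, by the test of the difference itself in limma, for 7 members on day 2. On the log2 scale these differences were -6.08 for Nov, -5.41 for Postn, -4.64 for Tnc, -4.44 for Thbs1, -4.18 for Thbs2, -3.34 for Ctgf and -3.25 for Cyr61. On day 4 the differences past the threshold were -6.75 for Thbs2, -6.47 for Postn, -5.62 for Nov, -4.62 for Tnc and -2.84 for Cyr61. On day 8 they were -8.15 for Thbs2, -7.15 for Nov, -7.00 for Postn, -4.71 for Tnc, -4.66 for Cyr61 and -4.05 for Thbs1. Ctgf, past the threshold on day 2, was not past it on days 4 and 8, and Thbs1 was past it on days 2 and 8 but not on day 4 (-3.16 ± 0.94, adjusted p = 0.0675).

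The WT systems moved in opposite directions for Tgfbi. On days 4, 6 and 8 every WT-1 library was more than 2-fold above its MEF and every WT-2 library more than 2-fold below it. The day 8 changes differed by 4.57 on the log2 scale. With 1 library per stage in each system, this difference was not tested.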

How the results depend on the processing

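Of the counts of members called, 136 values under the alternatives stayed within 1.5 times the reported one and 27 did not. No result reversed. With the low-level filter off, the day 2 difference between depleted and WT held for 4 members and the WT day 8 count was 0. A pseudocount of 0.1 also gave 4 for the day 2 difference. Without the system block the counts were 2 for day 1 in the depleted courses, 1 for the day 2 difference, 2 for the day 4 difference, and 0 for WT on day 4 and on day 8. With the compared stages alone they were 0 for the day 2 difference, 3 for the day 4 difference, and 0 for WT on days 4 and 8. A median shift gave 1 for WT on day 8 and 5 for si-Scramble day 7 against MEF. Leaving out 1 course gave 3 to 8 members for day 2 in the depleted courses, 2 to 6 for the day 2 difference, 0 to 1 for WT on day 4, 2 to 6 for the day 4 difference and 0 to 1 for WT on day 8. For single members 108 values lost and 8 gained the call, in the same direction. Over all genes, dropping the block lowered every count listed here: 10748 genes were called between iPSC and MEF with it and 6407 without, 4672 and 1324 on day 1 in the depleted courses, 3686 and 515 on day 2, 5789 and 1830 on day 4, 6961 and 2908 on day 8, and 235 and 1 in WT on day 8. For the differences between classes the counts were 493 and 28 on day 2, 1311 and 205 on day 4, and 3273 and 847 on day 8. With the compared stages alone these differences were 0, 283 and 792, and WT on day 8 was 0. Leaving out Mbd3f/- gave 2264 for the day 2 difference. The cause was not tested. A median shift moved the split of calls towards lower genes on day 1 (2856 of 4672 higher, 1737 of 4677 after the shift) and on day 2 (2023 of 3686 and 1488 of 3777) in the depleted courses. Day 1 without 1 course, and ES against iPSC with the compared stages alone, could not be fitted. The system block pairs each stage with the MEF of its own course. No other paired analysis was possible because the course samples carry no replicate numbers. Depth is unknown, each stage of a system is 1 library, and the WT calls rest on 2 systems that differ in their macrophage markers.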
